A study of Mus musculus with 3 samples.

Results

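The cytosolic ribosomal protein genes were described here in a list of crosslink positions from a pulldown of the RNA-binding protein ZFP36L1 in mouse thymocytes. They were taken as the protein-coding genes whose name is that of an Rpl or Rps gene with a number, together with Rpsa, Rplp0, Rplp1 and Rplp2, and without the Rps6k kinases. This gave 78 of the 12541 protein-coding genes in the deposited list, and 709 of its 462392 positions. The series holds 3 libraries of individual-nucleotide crosslinking and immunoprecipitation (iCLIP) from total naive thymocytes of C57BL/6JBabr mice. Of these, 2 came from separate experiments on WT cells and 1 from DCKO cells, the study's double conditional knockout of Zfp36l1 and Zfp36l2. Cells of every library received ultraviolet light at 300 mJ/cm2, and the protein was pulled down with an antibody named Brf1/2. Neither the labels nor the design text give the age of the mice, their number per library or the Cre driver of the knockout. The deposited list has 1 count per position, with no column for the library. Which libraries entered it is unknown, so counts from the knockout may be among them, and the antibody's name is not limited to ZFP36L1. WT and DCKO were therefore not compared, no value has a replicate error, and no test over samples was made.

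Ribosomal proteins are the structural partners of ribosomal RNA in the small (Rps) and large (Rpl) subunits. Their mRNAs are short, abundant and stable, and begin with an oligopyrimidine tract (TOP) through which mTOR signalling sets their translation. Many of their introns carry small nucleolar RNAs (snoRNAs), which guide the chemical modification of ribosomal RNA and are trimmed out of the spliced intron. ZFP36L1 belongs to the ZFP36 family, whose zinc fingers bind AU-rich elements such as TATTTA, usually in 3′ UTRs, and recruit the decay machinery. In iCLIP, reverse transcription tends to stop at the crosslinked base, and the base before the start of a read is usually taken as the contact.

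The ribosomal protein genes carried few counts. Their 709 positions summed to a count of 1157, which is 0.18% of the 643293 counts on protein-coding genes. The median gene had a summed count of 12, against 13 over all 12541 protein-coding genes, and the highest-ranked gene with counts inside its own bounds, Rps3, stood at rank 2799. A total of 46 genes had a count of 10 or more, and 13 had a count below 5. Of 77 core ribosomal protein genes, 75 were listed and 2 had no listed position. The list holds no measure of RNA abundance, so few molecules and little contact per molecule cannot be told apart. In a mixed population such as total thymocytes, fewer cells of a type and less RNA per cell cannot be told apart either.

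The 10 genes with the highest sums held 363 counts, or 31.4% of the total. The name Rpl24 led with 57, followed by Rps3 with 53 and Rpl3 with 43. Rpl17 and Rpl30 had 34 each, Rps9 had 30, Rpl13a and Rpl7a had 29 each, and Rpl4 and Rpl7 had 27 each. At the other end, Rpl29 and Rpl38 had a count of 1 each. The 31 small subunit genes summed to 450 and the 47 large subunit genes to 707, with a median of 12 in both. The rule also took in 3 genes outside the core list. Rpl7l1, a paralog of Rpl7, had 15 counts, Rpl22l1, a paralog of Rpl22, had 3, and Rps4y2 had 2 at 1 position of chromosome 6 for which GENCODE gave no matching gene.

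**Figure D1:**
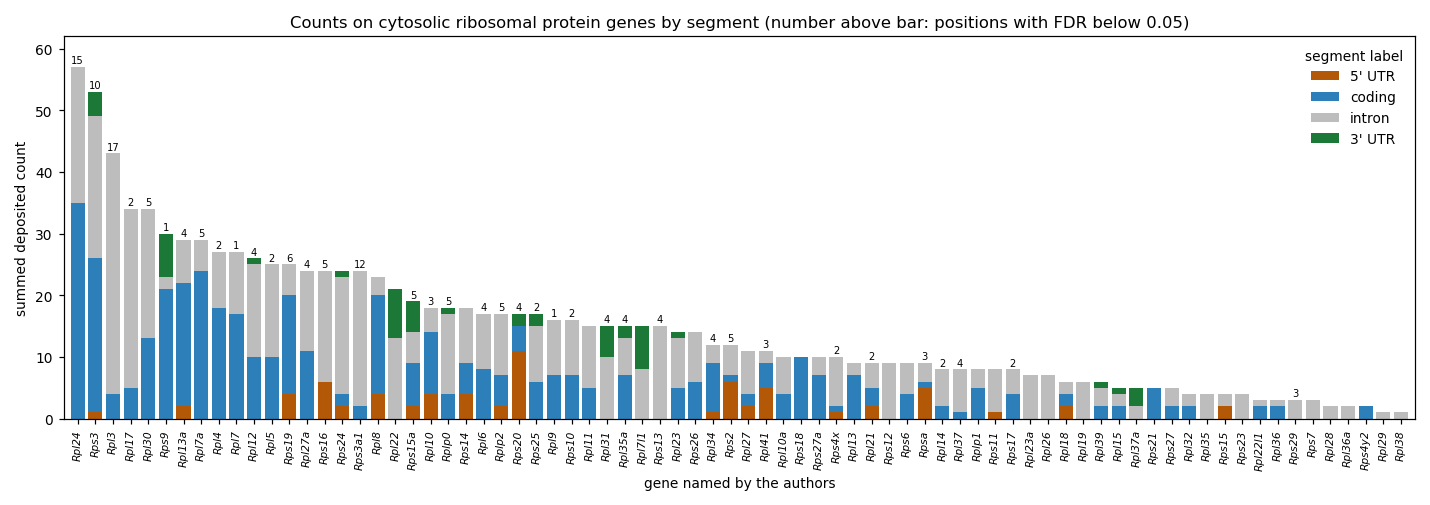
Summed deposited count of each of 76 of the 78 ribosomal protein genes, stacked by the authors' segment label and ordered by the sum. The number above a bar counts positions with an FDR below 0.05. Coding and intron labels make up most bars, and the counts fall from 57 for the name Rpl24 to 1 for Rpl38.

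A site is used here for a position with an authors' FDR below 0.05, a value that the authors computed per position. Of the 709 positions, 170 were sites (24%), against 28.7% of positions in other protein-coding genes. A total of 39 of 78 genes had a site in any segment, and over all protein-coding genes the share was 63.6%. Of the positions, 312 had a count of 1, 371 a count of 2, and 26 a count of 3 or more. The highest count at a single position was 8, in Rpl7a, whereas other protein-coding genes reached 228.

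The name Rpl24 did not stand for the Rpl24 gene. RPL24 is a protein of the large subunit, and GENCODE places its gene at chr16:55966275-55971435 on the plus strand of GRCm38. None of the 40 positions named Rpl24 lay there. All 40, with their 57 counts and 15 sites, lay in Zbtb11 at chr16:55973883-56008913 on the same strand. Zbtb11, the next gene downstream, encodes a zinc finger protein, and no position labelled protein-coding in the deposited list carries its name. In Zbtb11, 16 of these positions with 25 counts and 9 sites were in the 3′ UTR, 20 positions with 26 counts in introns and 4 positions with 6 counts in coding sequence. A stretch of that 3′ UTR is shown because it holds the family's motif beside 3 listed positions with a summed count of 4. It lies at chr16:56007821-56007849 on the plus strand of GRCm38, and the capitals mark TATTTA. The sequence was read from the RefSeq genome, like each one printed here.
Zbtb11, named Rpl24: atcaagtttgtataattTATTTAtctcta
Inside the GENCODE gene of the same name, the Rpl24 count was 0. Without it and the other positions outside their named gene, 1095 counts remained and 38 genes had a site.

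The counts of ribosomal protein genes were spread along the gene in other proportions than those of other genes. By the authors' labels, 50.6% of counts were in introns (95% Wilson interval 47.7 to 53.4, counting error only), 38.9% in coding sequence (36.1 to 41.7), 5.96% in 5′ UTRs (4.74 to 7.48) and 4.58% in 3′ UTRs (3.52 to 5.94). Other protein-coding genes had 76.9% in introns, 9.07% in coding sequence, 13.2% in 3′ UTRs and 0.8% in 5′ UTRs. The ribosomal protein genes thus had a higher share than other genes in coding sequence and 5′ UTRs and a lower share in introns and 3′ UTRs, by differences outside these counting intervals. Introns of these genes are short, with a median of 366 nt over 345 introns against 1443 nt in other genes. Per kilobase of GENCODE sequence, ribosomal protein genes had 7.22 counts in 5′ UTRs, 4.88 in coding sequence, 3.73 in introns and 3.29 in 3′ UTRs. Other genes had 2.18, 1.44, 0.674 and 5.03, so that by this measure the 3′ UTR was their densest segment and the least dense of the ribosomal protein genes. For the ribosomal protein genes, the length here and in the coding densities below is that of 1 principal transcript per gene. The counts were placed by several transcripts per gene, so counts and length do not cover the same sequence throughout. The small subunit genes had 45 of 450 counts in 5′ UTRs and the large subunit genes 24 of 707 (3.39%), while coding shares were 37.3% and 39.9%, intron shares 47.6% and 52.5%, and 3′ UTR shares 5.11% and 4.24%.

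**Figure D2:**
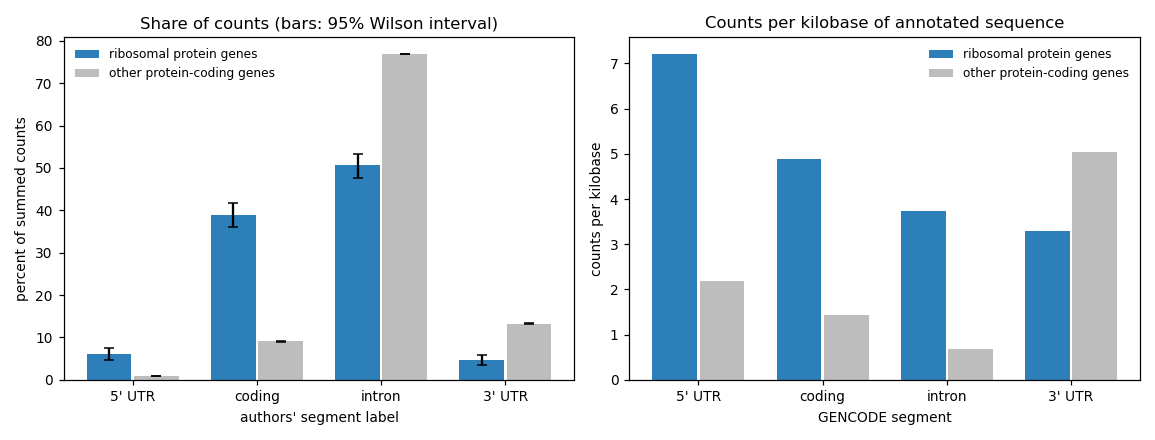
Left, percent of summed counts in each segment by the authors' label, with 95% Wilson intervals, for ribosomal protein genes (blue) and other protein-coding genes (grey). Right, counts per kilobase of GENCODE sequence in the same segments. Coding sequence holds 38.9% of counts in ribosomal protein genes and 9.07% in other genes, and the 3′ UTR is the only segment with fewer counts per kilobase in ribosomal protein genes than in others.

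The coding label depended on the annotation. Of the 262 positions labelled coding, 113 with 189 counts lay in GENCODE coding sequence. A further 103 with 184 counts lay in a GENCODE intron, 22 lay in Zbtb11, 16 in a 5′ UTR, 7 in a 3′ UTR and 1 in no matching gene. Of the 103 in an intron, 101 (98.1%) were inside an exon of another GENCODE transcript of the gene, and 72 (69.9%) inside an exon of a transcript typed as retained intron. Of the 338 positions labelled intron and in a GENCODE intron, 105 (31.1%) were inside an exon of another transcript and 93 (27.5%) inside a retained intron exon. With GENCODE segments, 16.8% of ribosomal protein counts were coding and 61.7% were in introns, against 5.25% and 76.7% in other genes. All 32 positions labelled 3′ UTR and 36 of 37 labelled 5′ UTR had the same segment in GENCODE. A further 17 positions labelled intron, with 27 counts and 7 sites, lay in a GENCODE 3′ UTR. With the 7 labelled coding they brought the GENCODE 3′ UTR set to 56 positions, 92 counts (7.95%) and 11 sites.

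In 5′ UTRs, sites of ribosomal protein genes lay in tracts of pyrimidines. A 5′ UTR site was found in 5 of 78 genes, against 1.13% of all protein-coding genes. The 5 were Rps20, Rps16, Rps2 and Rpsa, which encode small subunit proteins, and Rpl41, which encodes a very short protein of the large subunit. Their sites are printed because they carry 29 of the 69 counts of this segment. The capitals mark listed positions, and the stretches lie in GRCm38 at chr4:3835584-3835612 on the minus strand for Rps20, chr7:28350740-28350768 on the plus strand for Rps16, chr9:120127775-120127803 on the plus strand for Rpsa, chr10:128548969-128548997 on the minus strand for Rpl41 and chr17:24720226-24720254 on the plus strand for Rps2.
Rps20: cgtccggcccctCCTTtctgagccccggc
Rps16: cccgcgcttcccTtTtccggtcgcggcgc
Rpsa: ccggccgcccgTccTTtcgcgctacccgg
Rpl41: gcatttttcccTCtTtctctctagagact
Rps2: ctagcgttctgctgATTtcctttttttcc

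Rps20 had 9 counts at the 4 adjacent sites shown, with 1, 1, 4 and 3 at successive bases, and 2 more elsewhere in the 5′ UTR. Rps16 had 6 counts at 2 sites, and Rpsa and Rpl41 had 5 counts each at 3 sites. Rps2 had 4 counts at 3 sites, and 2 more elsewhere in the 5′ UTR. The unbroken run of C or T around the site was 12 bases long in Rps20 and Rps16, 7 in Rpsa, 19 in Rpl41 and 24 in Rps2. Of the 15 sites, 14 (93.3%, 70.2 to 98.8) lay in a run of 6 or more pyrimidines, against 49.0% of 608 5′ UTR sites in other genes. Of all 37 listed 5′ UTR positions, 20 (54.1%) lay in such a run, against 28.2%. The 15 sites stand in 5 tracts and are not independent of one another. GENCODE 5′ UTRs here pool several transcripts of a gene. Whether a tract also lies at the end of an intron of the principal transcript was not tested.

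Of these positions, 21 were near an annotated transcript start. Within 20 nt of the start of a GENCODE transcript of the gene lay these 21 of 37 positions (56.8%, 40.9 to 71.3), from 14 genes, against 22% in other genes. Of the 15 sites 8 were that near (53.3%, 30.1 to 75.2), from 3 genes, against 22.8%. The median number of different annotated starts was 6 per gene in both sets. In Rpsa the sites stood between 3 nt before and 1 nt after an annotated start. In Rps20, by contrast, they stood 65 to 68 nt after the nearest one, and in Rpl41 116 to 119 nt after it. Counted from the start of the principal transcript, the first 50 nt held 14 of 315 exon counts (4.44%, 2.67 to 7.32) and 4.35% of the exon length, but 0 of the 65 exon counts at sites. The first 100 nt held 13% of counts and 8.69% of the length. Annotated starts of these genes rarely showed the TOP form, taken as C followed by 4 pyrimidines. It was found at 8 of 77 principal GENCODE starts and in 13 of 58 genes with a RefSeq start, against 2.51% of all RefSeq starts. Where transcription starts in these cells was not measured here, and so a position in the TOP itself and one upstream of it cannot be told apart.

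Rpl8 had the same count of 4 at 1 base of its 5′ UTR, the base before the start codon. That position had an authors' FDR of 0.34 and is no site. It is shown as the strongest 5′ UTR position outside a pyrimidine tract, with the position in capitals, at chr15:76904298-76904326 on the plus strand of GRCm38.
Rpl8: tccagactcgccgcCatgggccgtgtgat

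Several of the strongest positions of ribosomal protein genes stood just before the first base of snoRNA genes. GENCODE and RefSeq place 60 snoRNA genes inside 29 of the 78 genes. At 1 to 3 nt before the first base of such a snoRNA, 20 positions in front of 15 snoRNAs summed to 54 counts, which was 4.67% of all ribosomal protein counts. By distance, 34 counts were at 1 nt before, 14 at 2 nt and 6 at 3 nt. Per base of distance, this was 18 counts, against 0.963 at 4 to 30 nt before. Of the 26 positions with a count of 3 or more, 8 lay within 30 nt before or inside a snoRNA gene (30.8%), and of the 170 sites 24 did (14.1%). The shares in other protein-coding genes were 0.0519% and 0.0152%. Those genes had 86 counts in front of 31 of their 307 snoRNAs at the same 1 to 3 nt, 28.7 per base of distance, so the step at this edge was also present outside the ribosomal protein genes.

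Edges with high counts are printed for comparison, from 10 bases before to 20 bases into the snoRNA gene, so that the snoRNA starts at base 11. The capitals mark positions listed under the ribosomal protein gene. In GRCm38 they lie at chr2:26912838-26912867 (plus), chr7:109520110-109520139 (plus), chr7:109521270-109521299 (plus), chr7:28351498-28351527 (plus) and chr5:107904545-107904574 (plus), in the order shown.
Rpl7a, LOC115489588: tttggaccaTttgCcagtgatgcTtaggaa
Rpl27a, Snora3: aggggacctGtccgaggctagagtcacgct
Rpl27a, Gm24888: ggggTgttTGgccgaggctagagtcacatc
Rps16, AF357399: taacattGGTagcacttgtatgggtttttg
Rpl5, Snord21: gagatgaGCtgccaatgatgacaccacact

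Rpl7a, a large subunit protein, had a count of 8 at 1 nt before the RefSeq snoRNA LOC115489588, the highest of any ribosomal protein position. Rpl27a had 7 at 1 nt before Snora3 and 4 at 1 nt before Gm24888, and 15 of its 24 counts were near a snoRNA. Rps16 had 11 counts at the 3 bases before AF357399, with 6 at the middle base. Rpl5 had 4 over 2 bases before Snord21. The positions of Rpl7a and of Rpl27a before Snora3 carry the coding label and lie in a GENCODE intron. Rpl3 differed from these: 24 of its 43 counts and 12 of its 17 sites were spread from 14 nt before to 25 nt after the first base of Snord43, a snoRNA in RefSeq that GENCODE types as a miRNA.

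Inside the GENCODE snoRNA genes the authors gave the snoRNA label and not the ribosomal protein name. No count labelled intron under a ribosomal protein name lay inside one. Under the snoRNA label, 56 snoRNAs of 29 ribosomal protein genes held 521 positions and 1368 counts, more than the 1157 under the ribosomal protein names. This was 17.4% of the 7859 counts labelled snoRNA. Rpsa carried 222 such counts in 3 snoRNAs beside 9 of its own. Rpl4 carried 118 beside 27, Rpl7a 87 beside 29 and Rps12 80 beside 9. In some hosts the order was the other way round, among them Rps16 with 12 beside 24, Rpl30 with 31 beside 34 and Rpl17 with 27 beside 34. Whether the counts at the edge came from the snoRNA or from the intron was not tested. Away from snoRNA genes, 1059 counts remained, with 48.9% in introns and 39.6% in coding sequence.

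**Figure D3:**
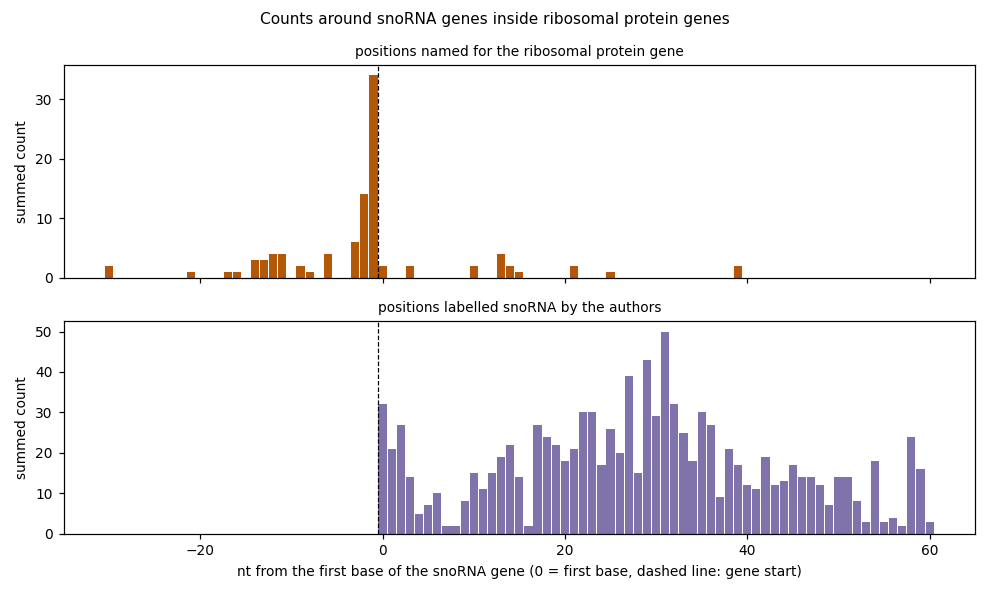
Summed counts by distance in nt from the first base of the snoRNA genes inside ribosomal protein genes, with the gene start as a dashed line. Above, positions named for the ribosomal protein gene, with 34 counts at 1 nt before the start. Below, positions labelled snoRNA by the authors, which begin at the first base. The 2 panels have different scales.

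Introns of ribosomal protein genes had more counts per kilobase next to the 3′ splice site than elsewhere, though most of their counts lay elsewhere. An intron position was listed in 74 of 78 genes, and 13 genes had intron counts only. An intron site was found in 26 of 78 genes, and in 55.6% of all protein-coding genes. The last 30 nt of introns held 179 of 711 counts (25.2%) in 49 genes, with 39 sites. This was 17.3 counts per kilobase, against 2.94 in the rest of the intron and 4.73 in its first 30 nt. Other genes had 6.38% of intron counts in the last 30 nt, at 7.36 per kilobase against 0.619 in the rest, so the rise toward the 3′ end was there as well. The last 30 nt had 5.88 times the density of the rest in ribosomal protein genes and 11.9 times in other genes. The larger share in ribosomal protein genes goes with their shorter introns, and the part of length in it was not tested beyond these densities. Rpl17 had 12 counts in these ends, Rpl13a 11, Rps19 10, and Rpl6 and Rpl30 9 each.

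Intron ends usually hold the polypyrimidine tract that the splicing machinery reads. Over whole introns by the authors' label, sites lay in a run of 6 or more pyrimidines in 45 of 102 cases (44.1%, 34.9 to 53.8), against 38.3% in other genes, a difference within the counting interval. The 12 sites of Rps3a1 stand in 1 run of 29 bases. A further 5 sites, of Rps3, stand in 1 run of 27 bases that lies in a GENCODE 3′ UTR. Sites of 1 tract are not independent of one another, which the intervals in this paragraph do not cover. TTTTTT, searched on the strand of the gene within 20 nt, was near 41 of the 102 sites (40.2%, 31.2 to 49.9), against 34.6%. Stretches of 3 introns are printed as examples, with listed positions in capitals. Those of Rpl30 and Rpl21 are intron ends. In that of Rplp0 the listed positions lie 577 to 584 nt from the next exon. Those at 577, 578 and 582 nt are in a run of 15 pyrimidines. They belong to Rpl30 at chr15:34440603-34440631 on the minus strand, Rpl21 at chr5:146834962-146834990 on the plus strand and Rplp0, the base of the ribosomal stalk, at chr5:115562692-115562720 on the plus strand of GRCm38.
Rpl30: ttgtaaaactattaTTTtattttctaggt
Rpl21: ttctggaataatacTttttctGttgacta
Rplp0: caaagctGGTcttTTtttttttttaagtt
Rpl30 had 7 counts at the 3 bases shown, with 4 at the strongest, 13 nt from the next exon. Rpl21 had 4 counts at 2 positions and Rplp0 6 at 5.

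**Figure D4:**
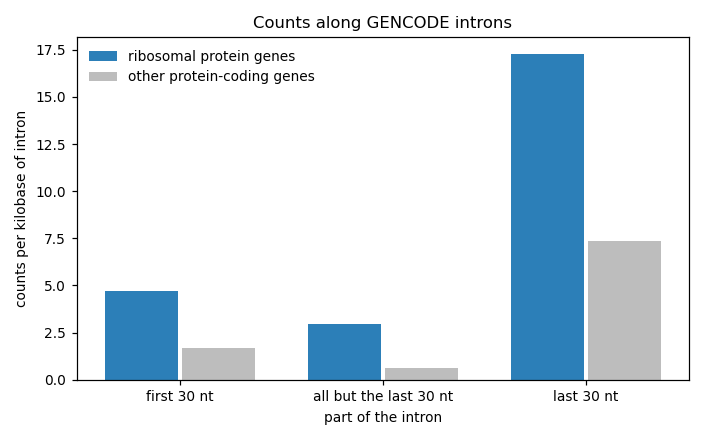
Counts per kilobase in the first 30 nt, in all but the last 30 nt, and in the last 30 nt of GENCODE introns, for ribosomal protein genes (blue) and other protein-coding genes (grey). In both sets the last 30 nt are the densest, with 17.3 and 7.36 counts per kilobase.

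Rps3 and Rpl3 show how differently the counts of single genes could lie. Rps3, a small subunit protein at the mRNA entry of the ribosome, had 25 counts labelled coding, 23 labelled intron, 4 labelled 3′ UTR and 1 labelled 5′ UTR. Of its 10 sites, 8 were labelled intron and 2 were labelled 3′ UTR. By GENCODE segment, 5 of the 8 lay in the 3′ UTR, which then held 7 sites, and 3 in an intron. Rpl3, which lies near the peptidyl transferase centre, had 39 of 43 counts and 15 of 17 sites labelled intron. Rps3a1 had 22 of 24 counts and all 12 sites labelled intron, and Rpl17 had 29 of 34 counts there. By the authors' label, Rps20 had no intron count, and Rps18 had its 10 counts under the coding label. By GENCODE segment, Rps20 had 2 intron counts, and Rps18 had 6 in introns and 4 in coding sequence. Among genes with a low sum, Rps29 had 3 counts at 3 positions, all of them intron sites.

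Coding counts went with the uniqueness of the coding sequence. Ribosomal protein genes have many processed copies in the genome, and a read that fits several places may not be placed. Of 30-base windows along their coding sequence, 30.9% occur once in the genome, against 91.7% in a sample of other coding sequence. The labels give a read length of 100 nt for every library. Uniqueness of stretches longer than 30 bases was not computed, so these shares are not the shares of reads that could be placed. In their introns the share was 95.7%, in 5′ UTRs 88.2% and in 3′ UTRs 87.1%. At the listed coding positions, 102 of 116 windows (87.9%) were unique. The median gene had 25.1% unique coding windows, and 8 of the 77 genes with a GENCODE match had 50% or more, among them Rpl8, Rps3, Rpl4, Rps21, Rpl22, Rpl7l1 and Rps9. These 8 had 13.9 GENCODE coding counts per kilobase and the other 69 had 3.48. Spearman's rho of the unique share and the coding counts per kilobase was 0.451 across the 77 genes, which share the same libraries and are not independent replicates. How reads with several places were treated is not stated in the labels or headers, and its part in the low counts was not tested.

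**Figure D5:**
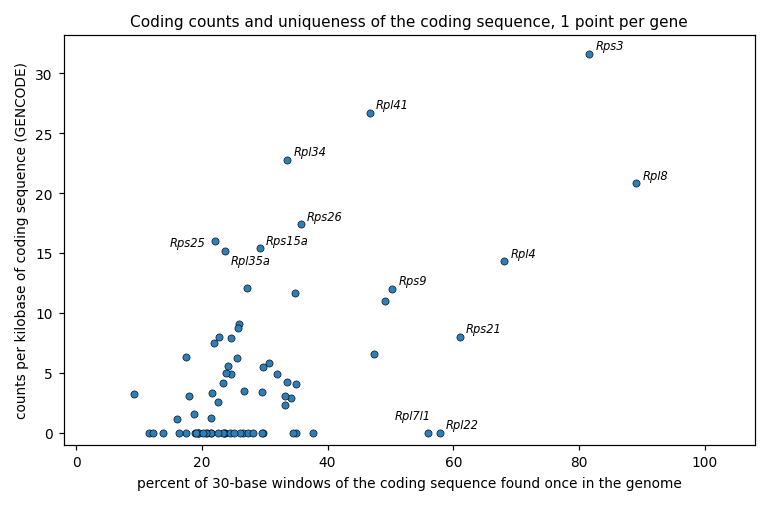
Each point is 1 of 75 ribosomal protein genes, with the percent of 30-base windows of its coding sequence that occur once in the genome on the x axis and its GENCODE coding counts per kilobase on the y axis. Rps3, with 81.6% unique windows, has the highest density, 31.6 counts per kilobase, and the genes at 0 lie below 40% apart from Rpl22 and Rpl7l1.

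Rps3 had 31.6 coding counts per kilobase, Rpl8 20.8, Rpl4 14.3, Rps9 12 and Rps21 8.03. Rpl22 and Rpl7l1, with 57.8% and 56.0% unique windows, had none. Among genes with under 50% unique, Rpl41 reached 26.7 with a count of 2 in its very short reading frame, and Rpl34 reached 22.8 with 8 counts. In all, 45 genes had a GENCODE coding position and 33 had none. A coding site by the authors' label was found in 18 of 78 genes, and in 13.1% of all protein-coding genes. By GENCODE segment 7 of the 78 genes had one, as did 855 of the 12463 other protein-coding genes. The strongest coding positions in GENCODE coding sequence are printed with listed positions in capitals, Rpl4 at chr9:64177380-64177408 on the plus strand and Rpl34 at chr3:130729076-130729104 on the minus strand of GRCm38.
Rpl4: gtgggccgtTtctgCatctggacggagag
Rpl34: gttgggaaagcacCTaaatctgcatgtgg
Rpl4 had 6 counts at these 2 positions, with 4 at the stronger, and Rpl34 had 4 at 2, with 3 at the stronger.

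In 3′ UTRs, where the ZFP36 family is known to act, ribosomal protein genes had few counts and, by the authors' label, few sites. A 3′ UTR position was listed in 17 of 78 genes. A 3′ UTR site was found in 2 of 78 genes, Rps3 and Rps9, against 17.7% of all protein-coding genes. Of the 32 listed 3′ UTR positions 3 were sites (9.38%, 3.24 to 24.2), against 37.8% in other genes. By GENCODE segment 11 of 56 positions were sites (19.6%, 11.3 to 31.8), against 38.8%, in 4 genes, which were Rps3 with 7, Rps13 with 2 and Rps9 and Rpl9 with 1 each. The 5 sites of Rps3 that carry the intron label lay in a run of 27 pyrimidines. Rps9, a small subunit protein, had 6 counts at 1 base, in a run of 8 pyrimidines, and Rps3 had 4 counts at 2 adjacent bases under the 3′ UTR label. GENCODE 3′ UTRs here pool several transcripts of a gene. The principal transcript of Rps9 has 751 exon bases, of which 582 are coding. Whether the Rps9 site lies in an intron of that transcript was not tested. Rpl22 had 8 counts over 4 positions, Rpl7l1 7 over 4, and Rpl31 and Rps15a 5 each, with no site. The sites labelled 3′ UTR are printed, with listed positions in capitals, Rps9 at chr7:3706623-3706651 on the plus strand and Rps3 at chr7:99478188-99478216 on the minus strand of GRCm38. Neither stretch holds TATTTA. The shorter ATTTA lay within 20 nt of 2 of the 3 sites. It was near 5 of the 32 positions (15.6%, 6.86 to 31.8), against 21.7% in other genes. The third stretch is the only 3′ UTR of these genes with TATTTA within 20 nt of a listed position, that of Rpl37a at chr1:72713596-72713624 on the plus strand, where the capitals mark TATTTA.
Rps9: gtccccttattctgTtcttcctgtccagg
Rps3: tactgttggtgtgTTttgtggggaatgaa
Rpl37a: gcaataaacgggtTATTTAcgtaactttt
Rpl37a had counts of 2 and 1 at 2 positions in this stretch, and neither was a site.

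TATTTA, searched on the strand of the gene, lay within 20 nt of 22 of the 709 positions (3.1%, 2.06 to 4.65), against 10.7% in other protein-coding genes. Of the 170 sites 12 had it (7.06%, 4.08 to 11.9), against 22.7%. Over all bases of the ribosomal protein genes, 1.16% had the motif within 20 nt, and in their 3′ UTRs 1.44%. The same share over all bases of other genes was not computed. Of 9 coding sites near the motif, 6 were the Zbtb11 positions named Rpl24, and the other 3 were adjacent or nearly adjacent positions of Rpl10, each with a count of 2, in a GENCODE intron. Inside the GENCODE gene of the same name, 2.4% of positions had the motif. Intron sites near it were found in Rpl14 and Rplp2, with 3 positions in all.

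Genes of related function, in lists written down for this description, were set beside the ribosomal protein genes, with no test. The shares of all protein-coding genes with a site were 1.13% for 5′ UTRs, 13.1% for coding sequence, 55.6% for introns and 17.7% for 3′ UTRs. The 22 other mRNAs of the TOP class, such as Eif3a (194 counts), Eif3h (103) and Pabpc1 (97), had a median of 37 and none had a 5′ UTR site, while 8 (36.4%) had a coding, 13 (59.1%) an intron and 4 (18.2%) a 3′ UTR site. Their coding share was 24% and their 5′ UTR share 1.99%. Of the 19 regulators of TOP mRNA translation, 18 were listed, with a median of 76, no 5′ UTR site and 4 genes (22.2%) with a 3′ UTR site. Among them, Rps6kb1, the kinase of RPS6, had 314 counts, Larp4 163 and Rptor 135. The 32 ribosome biogenesis genes had a median of 20.5 counts, led by Wdr12 with 95, and 5 of them (15.6%) had a 3′ UTR site, near the share of all genes. Of 78 mitochondrial ribosomal proteins 64 were listed, with a median of 6, 76.2% of counts in introns and 12.1% in coding sequence. A 3′ UTR site was found in 1 of these 64 (1.56%), beside 2 of the 78 cytosolic ribosomal protein genes (2.56%). Few genes with such a site were thus not particular to the cytosolic set. Mrpl1 led the mitochondrial list with 68 counts. These lists differ in gene length and abundance, which were not matched.

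By the split of counts over the 4 segments, the gene most like the ribosomal protein genes as a group was Srsf11, among 1596 genes with a count of 100 or more. Its 169 counts were 39.6% coding, 49.7% intron, 6.51% 5′ UTR and 4.14% 3′ UTR, at a distance of 0.0134 between the shares written as fractions. Rbm25 (0.0722), Calm2 (0.0733), Dnaja1 (0.0935) and Ogt (0.0957) followed, each with no 5′ UTR count.

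The list held the markers of the labelled cell type. Of 9 thymocyte markers, 8 were listed with 7924 counts in all, led by Bcl11b with 3281, whereas B cell markers had 10, myeloid 22, erythroid 24, thymic epithelial 11 and stromal 15.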

How the data were processed

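The deposited list gives a strand, segment type, biotype, gene name and 4 values per position. Its counts are whole numbers signed by strand, per the file headers, and were treated as scores and used by their size. The authors' extended score is the sum of counts within 15 nt, per the file headers. The deposited FDR, another score, has a highest value of 5.53. The deposited p-value was not used. Bowtie and GRCm38 are named per the submitters' processing notes, while the counting, site calling and pooling are not given in the sources used here. Depth per library is unknown, and the counts of all positions sum to 814493. Positions count from 0 in the list, as labels at exon edges showed, and coordinates here count from 1.

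Members were chosen by name and summed by segment type. Segments, snoRNA genes (1558 from GENCODE, 180 added from RefSeq) and transcript starts came from GENCODE vM21 and RefSeq GRCm38.p6. Motifs were searched within 20 nt on the same strand, and uniqueness on both strands of the whole genome. Python 3.11.15, pandas 2.3.3, numpy 2.4.6 and pysam 0.24.0 were used. The functions for snoRNA distance, transcript offset, motif window and pyrimidine run were each tested on 500 simulated positions. The other steps, among them the placing of segments and the uniqueness of windows, were not tested in this way. The genes named are the 10 with the highest sum, the 5 highest per segment, those with a UTR site, the 3 highest single positions per segment, paralogs outside the core list, up to 3 genes per list and the 5 nearest by segment split. Others, among them the snoRNA hosts and the genes of the coding plot, were chosen after their values were seen. Members and lists were chosen with earlier results of these data known. Alternatives covered the FDR, counts, segments, windows, motifs and repeats. Intervals are 95% Wilson intervals and cover counting error only. The values of a few single genes are not reported here, though they are part of the sums. The comparisons with annotated transcript starts, snoRNA edges and intron ends, and the uniqueness of coding windows, were added after seeing the data.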

Additional observations from a re-analysis of the deposited data

Results flagged for a closer look

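Some positions carry a ribosomal protein name with the ending -ps under a pseudogene biotype and were in no comparison above. They have a signal without any control sample to set it against: 8 such genes had 11 positions with a summed count of 20, and 4 of the positions were sites. A further 2 genes named with -ps under the protein-coding label had 4 positions and 8 counts, and Rpl36al, which the name rule does not match, had 1 position with a count of 2.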

How the results depend on the processing

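Of 92 alternative values, 58 stayed within the counting interval of the reported share or within 1.5 times the reported number of genes, and 34 did not. With an FDR below 0.05, 54.2% of counts were in introns, 33.9% coding, 8.79% in 5′ UTRs and 3.03% in 3′ UTRs. With an FDR below 0.01 these were 54.7%, 31.6%, 10.2% and 3.51%. With counts of at least 2, 46.5% were in introns and 42.2% coding, and outside soft-masked sequence 45.8% and 43.2%. GENCODE segments gave 61.7% intron, 16.8% coding, 8.21% 5′ UTR and 7.95% 3′ UTR. Other genes under the same settings had coding shares of 6.14%, 6.66%, 9.85% and 13.9%, and 5.25% with GENCODE segments. Counting any listed position, 78 genes had one, 74 in an intron, 58 in coding sequence, 21 in a 5′ UTR and 17 in a 3′ UTR. GENCODE segments gave 7 genes with a coding site and 4 with a 3′ UTR site. Of the 12463 other protein-coding genes, 855 and 2509 had these. The share of intron counts inside snoRNA genes rose from 0 to 6.84% within 20 nt of one, and to 2.22% with RefSeq snoRNA genes. TATTTA was near 7.9% of positions with a window of 50 nt, 1.69% with 10 nt, 7.06% of sites and 1.85% outside soft-masked sequence. TATTTAT was near 1.69% and ATTTA near 6.06%. The first 30 nt of the transcript held 2.22% of exon counts, the first 100 nt 13%, and the first 50 nt 0 of the counts at sites. The cause of these differences was not tested beyond the alternatives' own construction. The settings on the bounds of the named gene, snoRNA edges and RefSeq snoRNA genes were chosen after seeing the data. No paired analysis was possible because the list has no library column. Leaving out a library could not be run for the same reason. Low depth limits single genes: 683 of the 709 positions had a count of 1 or 2.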
